A study of Mus musculus with 39 samples.

Results

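The 40 genes described here act in mitosis, the stage at which a cell separates its copied chromosomes and divides. They were taken by name from a table of read counts for 55011 mouse gene symbols, and all 40 were found. By role they are 8 kinases and cyclins, 4 members of the chromosomal passenger complex, 6 genes of the spindle checkpoint and the anaphase-promoting complex, 5 kinetochore genes, 6 genes of spindle fibres and motors, 6 of cytokinesis and 5 that shape chromosomes. The study asked how γδ T cells and the cytokine interleukin 17A (IL-17A) bear on the repair of skeletal muscle after injury with cardiotoxin, a snake venom toxin that kills myofibres. Polyadenylated RNA was counted in 39 libraries from 14 groups.

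Whole tibialis anterior, a muscle of the shin, was taken 1, 3, 7 and 14 days after cardiotoxin from Tcrd-DTR mice, in which the diphtheria toxin receptor is tied to the gene of the T cell receptor δ chain, and from wild-type (WT) mice. Mice of both genotypes had been given diphtheria toxin intraperitoneally, so the WT muscles carried toxin as well, and each group held 3 libraries except Tcrd-DTR (DTR) at day 7 with 2. Muscle satellite cells (MuSC), the stem cells of muscle, were sorted 1 day after cardiotoxin from mice of the same genotypes with the same toxin (n = 3 each). Whole tibialis anterior from WT mice at day 7 after cardiotoxin had received recombinant IL-17A (rIL-17A) or buffer (PBS) intraperitoneally and into the muscle (n = 2 each), without diphtheria toxin. T cells with the Vγ6 receptor chain were sorted from cardiotoxin-injured WT muscle at day 3 and from the colonic lamina propria of WT mice that had no treatment (n = 3 each), so tissue and injury cannot be told apart in that pair. Sorted libraries came from 1000 cells each and muscle libraries from 2 ng of RNA each. The series text describes the replicates as biologically independent, and the age of the mice was not given in the sources used here.

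Entry into mitosis is driven by the kinase Cdk1 bound to cyclin A or cyclin B, with Plk1 and the Aurora kinases acting beside it. Kinetochores attach chromosomes to the spindle, the spindle checkpoint holds the cell until all are attached, and Cdc20 then turns on the anaphase-promoting complex, which has cyclin B destroyed. Most of these genes are transcribed late in the cycle, under the MuvB complex with B-Myb and FoxM1, and are kept silent in resting cells by the related DREAM complex. In injured muscle, satellite cells leave their resting state and divide as myoblasts, and immune and stromal cells divide as well.

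The letters before the genes were searched for the elements these regulators bind. DREAM and MuvB bind the cell cycle genes homology region, known mostly as TTTGAA and in some genes as TTCGAA. The CCAAT box is bound by the factor NF-Y. Promoters of 300 bases, 250 before and 50 after the start, were taken from RefSeq (GRCm38.p6, the assembly also called mm10), which held 37 promoters for 35 of the 40 members. No entry was matched for Ccna2, Aurkb, Kif20a, Tpx2 and Incenp. Each motif was searched on both strands, so TTTGAA was also sought as its reverse complement, and CCAAT as ATTGG, whereas TTCGAA is the same on both strands. Each motif was counted on its own wherever motifs overlapped. TTTGAA stood in 29 of the 37 promoters (78.4%), against 17.9% of all 32851 promoters in the table, and TTCGAA in 3 (8.11%), against 1.56%. CCAAT stood in 30 (81.1%), against 37.4%, and in at least 2 places in 20 (54.1%), against 11.7%. Both a CCAAT and 1 of the 2 homology elements stood in 27 (73.0%), against 7.52%. Birc5, Nuf2, Nusap1 and Mad2l1 held none of the 3 motifs in this window. A match is a description of the letters and not a measured binding site.

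Shown are the promoters of 6 members on which the results below turn, namely cyclin B2 and cyclin B1, the kinase Plk1, the activator Cdc20, the centromeric histone Cenpa and the proliferation marker Mki67. In GRCm38.p6 they lie at chr9:70421505-70421804 on the minus strand (Ccnb2), chr13:100786437-100786736 on the minus strand (Ccnb1), chr7:122159185-122159484 on the plus strand (Plk1), chr4:118437294-118437593 on the minus strand (Cdc20), chr5:30666636-30666935 on the plus strand (Cenpa) and chr7:135716330-135716629 on the minus strand (Mki67). Each is written 5′ to 3′ on the strand of its gene, and capitals mark TTTGAA and CCAAT, with ATTGG where a CCAAT box lies on the other strand.
Ccnb2: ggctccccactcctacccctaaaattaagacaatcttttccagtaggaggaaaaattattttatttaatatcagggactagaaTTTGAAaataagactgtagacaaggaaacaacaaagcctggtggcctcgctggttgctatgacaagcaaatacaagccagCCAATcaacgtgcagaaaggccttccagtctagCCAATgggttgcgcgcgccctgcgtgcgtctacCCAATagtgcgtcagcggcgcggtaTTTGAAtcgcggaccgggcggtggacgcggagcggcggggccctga
Ccnb1: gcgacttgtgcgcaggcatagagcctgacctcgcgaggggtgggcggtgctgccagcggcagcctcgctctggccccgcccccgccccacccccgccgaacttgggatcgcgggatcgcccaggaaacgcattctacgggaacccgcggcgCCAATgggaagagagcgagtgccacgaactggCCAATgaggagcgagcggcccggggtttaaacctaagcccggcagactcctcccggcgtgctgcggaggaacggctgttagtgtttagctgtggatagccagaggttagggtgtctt
Plk1: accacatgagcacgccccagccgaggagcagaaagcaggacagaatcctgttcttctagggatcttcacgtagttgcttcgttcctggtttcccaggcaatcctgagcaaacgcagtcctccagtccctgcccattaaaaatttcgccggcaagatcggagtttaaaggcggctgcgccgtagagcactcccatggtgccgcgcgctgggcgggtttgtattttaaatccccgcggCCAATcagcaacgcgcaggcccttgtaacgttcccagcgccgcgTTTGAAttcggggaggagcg
Cdc20: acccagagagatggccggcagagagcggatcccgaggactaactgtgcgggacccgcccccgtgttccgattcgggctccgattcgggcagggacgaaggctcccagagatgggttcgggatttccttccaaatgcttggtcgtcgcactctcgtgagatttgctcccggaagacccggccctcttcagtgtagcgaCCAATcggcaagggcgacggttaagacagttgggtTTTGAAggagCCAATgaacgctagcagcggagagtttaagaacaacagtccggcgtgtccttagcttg
Cenpa: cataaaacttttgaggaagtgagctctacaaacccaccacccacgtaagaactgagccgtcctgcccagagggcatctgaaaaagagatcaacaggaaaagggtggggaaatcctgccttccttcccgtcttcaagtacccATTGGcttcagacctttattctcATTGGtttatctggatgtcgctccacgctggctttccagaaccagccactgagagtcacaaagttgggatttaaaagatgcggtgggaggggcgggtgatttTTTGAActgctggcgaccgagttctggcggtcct
Mki67: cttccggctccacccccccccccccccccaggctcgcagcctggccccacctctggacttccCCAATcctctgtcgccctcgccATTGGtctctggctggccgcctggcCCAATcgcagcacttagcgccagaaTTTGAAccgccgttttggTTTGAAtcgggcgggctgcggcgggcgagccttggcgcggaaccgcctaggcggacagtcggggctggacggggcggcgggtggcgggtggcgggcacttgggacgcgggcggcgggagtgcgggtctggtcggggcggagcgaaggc

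Ccnb2 and Mki67 held the most matches of the 6, with 2 TTTGAA and 3 CCAAT boxes each. Ccnb1 held 2 CCAAT boxes and no TTTGAA. Plk1, Cdc20 and Cenpa each held 1 TTTGAA within 50 bases of the start and 1, 2 and 2 CCAAT boxes.

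Libraries held 2372139 to 10974862 counts. Of these, 367 to 18911 lay on the 40 genes together, fewest in day 14 muscle and most in day 3 muscle, so single genes rested on a handful of reads at day 14. Levels are given as counts per 1000000 of the library's total (CPM), and log2 changes come with their standard error from edgeR, which rescales libraries by TMM and so can differ from the ratio of 2 CPM values. A change was called where edgeR's quasi-likelihood test gave a Benjamini-Hochberg adjusted p under 0.05 over all genes tested. Transcripts of the γδ T cell receptor, which check the depletion, summed to 14, 10, 2 and 6 reads in DTR muscle over days 1, 3, 7 and 14, against 14, 64, 24 and 22 reads in WT muscle. The equal sums at day 1 show no depletion there. At day 7, 20 of the WT reads lay in replicate 3, beside 3 and 1 in replicates 1 and 2 and 0 and 2 in the DTR libraries. The day 7 difference thus rests on 1 library. Whole muscle mixes cell types, and fewer cells of a type and less RNA per cell cannot be told apart in it. For 9 members an annotated coding gene overlaps, and the strand setting of the counting was not given in the sources used here. Ube2c overlaps Tnnc2, a myofibre gene with 1514 to 1554 CPM in DTR and 1442 to 1742 CPM in WT muscle at day 7, so the muscle values of Ube2c are uncertain.

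The summed level of the 40 genes was highest in day 3 muscle and in sorted satellite cells. In DTR muscle the libraries summed to 158 to 291 CPM at day 1, 1715 to 2116 CPM at day 3, 245 to 326 CPM at day 7 and 155 to 196 CPM at day 14. In WT muscle they summed to 217 to 273 CPM at day 1, 1774 to 2908 CPM at day 3, 194 to 255 CPM at day 7 and 116 to 123 CPM at day 14. Sorted satellite cells at day 1 were at the level of day 3 muscle, with 1179 to 2531 CPM in DTR and 2146 to 2360 CPM in WT. Muscle given rIL-17A summed to 290 and 305 CPM, against 311 and 388 CPM with PBS, and Vγ6 cells summed to 618 to 744 CPM in injured muscle, against 296 to 380 CPM in colon.

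**Figure D1:**
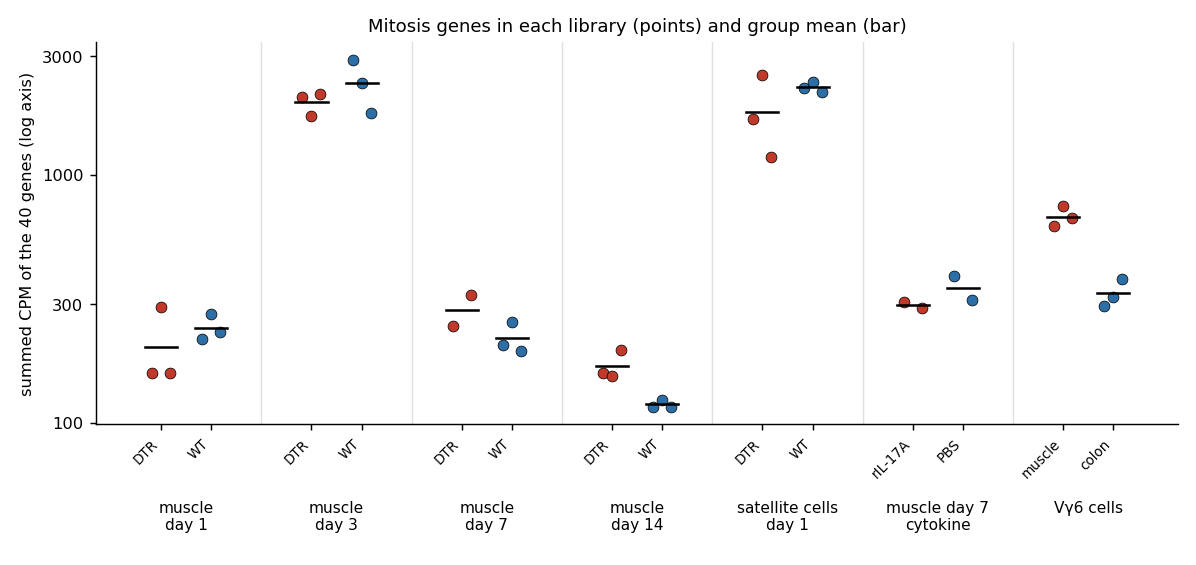
Summed CPM of the 40 mitosis genes on a log axis, 1 point per library and a bar at the group mean, with DTR, rIL-17A and injured-muscle Vγ6 cells in red and WT, PBS and colon Vγ6 cells in blue. Day 3 muscle (1715 to 2908 CPM) and satellite cells (1179 to 2531 CPM) stand above all other groups, and the muscle and colon Vγ6 cells do not overlap.

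From day 1 to day 3 all 40 genes rose in both genotypes, at a time when 8.48% of the 18264 genes tested rose in DTR and 9.58% in WT. The median change was 3.23 on the log2 scale in DTR (range 1.54 to 5.51), beside -0.10 over all genes, and 3.17 in WT (range 1.54 to 4.47), beside 0.00. No member's day 1 and day 3 libraries overlapped, which was true upward of 22.3% of all genes in DTR and 31.7% in WT. The 40 genes were tested over the 4 days as well, and each changed in both genotypes (background 56.2% in DTR and 53.7% in WT) and was highest at day 3.

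Among kinases and cyclins, cyclin B2 moved furthest. Ccnb2 stood at 0.908, 0.264 and 2.65 CPM at day 1 and 71.8, 62.5 and 92.0 CPM at day 3 in DTR, and at 3.38, 2.26 and 2.61 CPM at day 1 and 112, 72.0 and 57.3 CPM at day 3 in WT. Its change was 5.51 ± 0.61 in DTR (SE, edgeR adjusted p = 1.04e-06) and 4.47 ± 0.56 in WT (adjusted p = 4.43e-06). Ccnb1, the other B-type cyclin, followed with 0.727, 2.38 and 0.946 CPM at day 1 and 45.9, 38.7 and 46.5 CPM at day 3 in DTR, and with 1.80, 2.08 and 1.92 CPM at day 1 and 61.8, 55.2 and 36.3 CPM at day 3 in WT. Its libraries at the 2 days were thus far apart, with a change of 4.86 ± 0.39 in DTR and 4.30 ± 0.37 in WT. Cdk1, the kinase both bind, rose by 3.29 ± 0.32 in DTR and 2.89 ± 0.31 in WT, to 82.5 to 95.0 CPM in DTR and 71.8 to 128 CPM in WT. Plk1, which helps open mitosis and later cytokinesis, rose by 4.87 ± 0.49 in DTR and 3.59 ± 0.42 in WT. Aurka, the spindle-pole Aurora kinase, rose less, and its level at day 1 was already 23.5% of that at day 3 in DTR and 25.6% in WT.

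The other roles moved alongside. In the passenger complex, Birc5 (survivin) had the smallest p of the 40 in both genotypes. It stood at 4.18, 4.76 and 2.08 CPM at day 1 and 86.7, 87.3 and 109 CPM at day 3 in DTR, against 4.74, 4.34 and 4.88 CPM and 123, 102 and 86.1 CPM in WT. The change was 4.47 ± 0.32 in DTR (adjusted p = 3.10e-12) and 4.08 ± 0.31 in WT (adjusted p = 1.17e-11). Aurkb, the kinase of that complex, rose by 3.57 ± 0.47 in DTR and 3.03 ± 0.44 in WT. Of the checkpoint and anaphase genes, Cdc20 rose by 3.33 ± 0.31 in DTR and 3.45 ± 0.31 in WT, and the checkpoint kinase Bub1 by 3.77 ± 0.61 in DTR and 3.32 ± 0.57 in WT. The kinetochore protein Cenpf rose by 2.89 ± 0.36 in DTR and 3.23 ± 0.36 in WT, and the spindle motor Kif11 by 2.67 ± 0.47 in DTR and 3.21 ± 0.49 in WT.

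Prc1, which bundles the midzone of the spindle before cytokinesis, rose by 2.72 ± 0.36 in DTR and 2.69 ± 0.35 in WT. Among the genes of chromosomes, Top2a, the topoisomerase that untangles sister DNA, reached 127, 93.7 and 124 CPM at day 3 in DTR and 183, 142 and 121 CPM in WT. The condensin subunit Ncapd2 rose by 2.12 ± 0.28 in DTR and 1.79 ± 0.27 in WT and was at 10.6 to 17.9 CPM in all day 1 libraries. The smallest rise was that of Tpx2, which activates Aurora A on the spindle, at 1.54 in both genotypes. Role medians lay between 2.78 (spindle) and 3.89 (kinases and cyclins) in DTR and between 2.65 (chromosomes) and 3.35 (checkpoint) in WT.

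**Figure D2:**
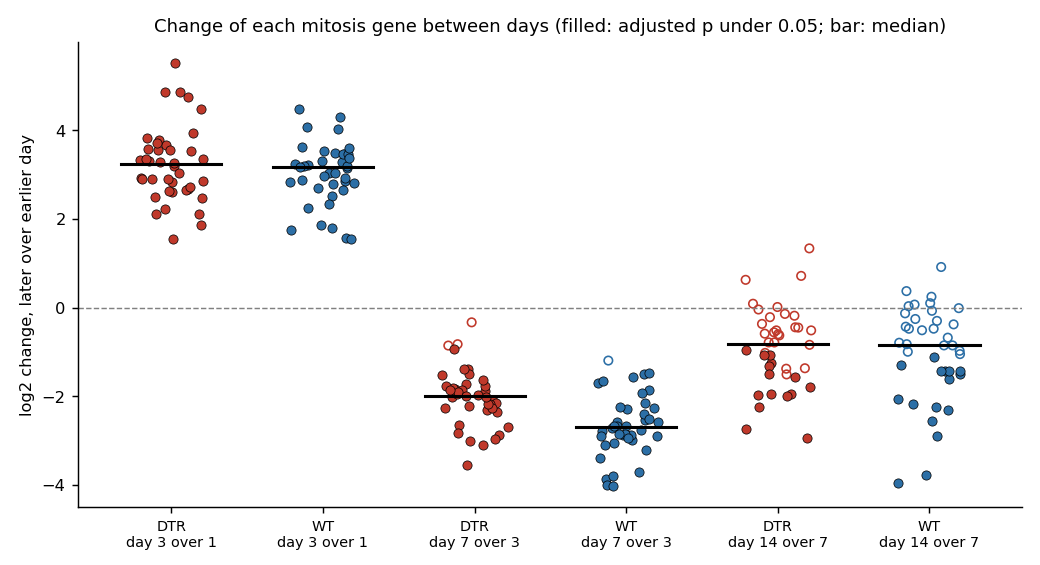
Log2 change of each of the 40 genes from 1 day to the next in DTR and WT muscle, as later over earlier day, with filled points at an adjusted p under 0.05 and a bar at the median. All 40 points are filled and above 0 from day 1 to 3 in both genotypes, and 37 in DTR and 39 in WT are filled and below 0 from day 3 to 7.

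From day 3 to day 7, 37 of the 40 genes fell in DTR and 39 in WT, while 18.4% of all genes fell in DTR and 19% in WT. The median change was -1.99 in DTR (range -3.56 to -0.33, all genes -0.22) and -2.69 in WT (range -4.02 to -1.20, all genes 0.04). In DTR the values that missed the threshold were those of Cks2, a small Cdk1 partner, at -0.86, Aurka at -0.83 and Ube2c, the ubiquitin carrier of the anaphase-promoting complex, at -0.33, and in WT that of the checkpoint kinase Ttk at -1.20 ± 0.51 (adjusted p = 0.062). Plk1 fell by 2.82 ± 0.47 in DTR and by 4.02 ± 0.43 in WT on the log2 scale. Mki67 stood at 7.33 and 13.8 CPM in DTR at day 7, after 80.0 to 82.9 CPM at day 3, and at 5.55, 2.79 and 4.49 CPM in WT at day 7, after 73.2 to 137 CPM at day 3. It fell by 1.98 ± 0.36 in DTR and by 3.81 ± 0.34 in WT.

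From day 7 to day 14 the count of falling genes differed by role. Of the 40, 15 fell in DTR (background 19.7%) and 16 in WT (background 13.2%), and none rose (background 14.6% in DTR and 4.14% in WT). Without replicate 1 of day 14 or replicate 2 of day 7, 10 fell in WT. With a length and GC offset 7 fell in DTR and 10 in WT. Kinases and cyclins gave 5 of 8 in each genotype with medians of -1.96 in DTR and -2.27 in WT, and the passenger complex gave 3 of 4 in DTR and 4 of 4 in WT. The spindle genes gave 0 of 6 in each by edgeR, with medians of -0.35 in DTR and -0.25 in WT and with 3 of 6 in DTR and 1 of 6 in WT at an unadjusted p under 0.05 (background 44.6% in DTR and 30% in WT). Kinetochore genes gave 1 of 5 in DTR (Cenpa, -1.07) and 0 of 5 in WT, where none had an unadjusted p under 0.05. Reads on olfactory and vomeronasal receptor genes, few of which are known to be used in muscle, were more at day 14. In DTR they summed to 92.1 to 146 CPM at day 7 and 1439 to 1997 CPM at day 14. In WT they summed to 267 to 1383 CPM and 1578 to 1844 CPM. Per kilobase, the 40 members stood at 3.01 to 5.16 times that level in DTR and 2.39 to 2.87 times in WT at day 14. The part of these background reads in the role counts was not tested. Cdk1 fell by 2.00 ± 0.37 in DTR and by 2.55 ± 0.41 in WT, and Birc5 by 1.94 ± 0.35 in DTR and by 2.91 ± 0.39 in WT. Plk1 and Cks2 were each down to 2 reads over the 3 WT libraries at day 14, after 62 and 67 at day 7, for CPM ratios of 0.0704 (exact binomial 95% interval 0.00834 to 0.265, counting error only) and 0.0651 (0.00773 to 0.245).

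Relative to day 3, the median member stood at 9.41% at day 1, 12.8% at day 7 and 7.83% at day 14 in DTR, and at 8.29%, 8.78% and 5.24% in WT. The lowest day was day 14 for 21 members in DTR and 29 in WT, day 1 for 13 in DTR and 7 in WT, and day 7 for 6 in DTR and 4 in WT. The 4 in WT were Mki67, the midzone motor Kif23, the spindle protein Hmmr and Ncapd2. Over the 23 libraries the log2(CPM + 1) values of members ran together, with a median pairwise Pearson r of 0.898 over 780 pairs (range 0.608 to 0.984), which describes genes measured in the same libraries with 1 shared peak day. Against the mean of the other members Cdc20 and Cdca3 were most alike (r = 0.982 each), and Ttk least (r = 0.823). The 3 WT libraries of day 3 were not equally high, and replicate 1 held the highest value for 35 of the 40 genes and replicate 3 the lowest for 34.

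Markers of several cell types moved around the day 3 peak. The 6 satellite cell and myoblast markers summed to 184 to 217 CPM at day 1 and 449 to 702 CPM at day 3 in DTR, where 4 of 6 rose, and to 165 to 251 CPM and 782 to 942 CPM in WT, where 6 of 6 rose. The 6 macrophage markers summed to 388 to 832 CPM at day 1 and 2221 to 2744 CPM at day 3 in DTR, where 6 of 6 rose, and to 541 to 875 CPM and 2292 to 3800 CPM in WT, where 5 of 6 rose. From day 3 to 7 all 6 macrophage markers fell in both genotypes, as did 2 of 6 satellite cell markers in DTR and 4 of 6 in WT, where 1 rose. The 6 myofibre markers summed to 62254 to 101442 CPM at day 1, 46223 to 60835 CPM at day 3 and 176149 to 186443 CPM at day 7 in DTR, and to 94771 to 119174 CPM, 20896 to 66183 CPM and 136929 to 165503 CPM in WT. Of these, 3 of 6 in DTR and 5 of 6 in WT fell from day 1 to 3, and all 6 rose from day 3 to 7 in both. WT replicate 1 of day 3, highest for most members, had the lowest myofibre sum. Stromal markers (fibro-adipogenic progenitors) summed to 901 to 2131 CPM at day 1 and 2479 to 3469 CPM at day 3 in DTR, where 1 of 6 rose, and to 1842 to 2197 CPM and 1977 to 3369 CPM in WT, where 2 of 6 fell. Neutrophil markers fell from day 1 to 3 for 3 of 5 tested in each genotype. The part of these markers in the changes of the mitosis genes was not tested.

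Other genes of the cell cycle, taken from lists outside the 40, moved less uniformly. Of 40 further mitosis genes, 32 in DTR and 33 in WT rose from day 1 to 3, with medians of 2.22 in DTR and 2.35 in WT. Of 35 genes of DNA replication, 20 in DTR and 21 in WT rose, with a median of 1.24 in each. The replication list was led by Rrm2, a subunit of ribonucleotide reductase, with 178 ± 40 CPM (SD, n = 3) at day 3 after 20.2 ± 4.5 CPM at day 1 in DTR, and 246 ± 36 CPM after 21.9 ± 6.9 CPM in WT. Foxm1, the activator of late cell cycle genes, rose by 2.40 ± 0.42 in DTR (adjusted p = 8.2e-05) and 2.89 ± 0.44 in WT (adjusted p = 5.41e-06), to 20.4 ± 3.7 CPM in DTR and 24.4 ± 3.9 CPM in WT. Among 14 genes of entry into the cycle, 9 rose in each genotype, with Cdk6 at 162 ± 9.1 CPM in DTR and 174 ± 31 CPM in WT. Of the inhibitors of cyclin-dependent kinases, 7 were tested, and 5 in DTR and 4 in WT rose from day 3 to 7, where 17.1% of all genes rose in DTR and 17.9% in WT. Among them Cdkn1c rose by 3.43 ± 0.38 in DTR to 42.4 ± 16 CPM.

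The balance of mitosis to replication transcripts changed with the day. The ratio of the summed CPM of the 40 members to that of the 35 replication genes was 0.259 to 0.336 at day 1, 1.03 to 1.12 at day 3, 0.759 to 0.898 at day 7 and 0.512 to 0.577 at day 14 in DTR. In WT it was 0.338 to 0.353, 1.02 to 1.08, 0.695 to 0.783 and 0.443 to 0.478 on the same days. Satellite cells at day 1, at 0.240 to 0.403 in DTR and 0.311 to 0.335 in WT, lay near the ratio of day 1 muscle and not near that of day 3 muscle, although their summed mitosis level was that of day 3 muscle. The ratio compares 2 sums within a library and carries no test.

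Between genotypes, few members differed at any day. The study's question here was whether loss of γδ T cells alters the course of repair. At day 1 and day 3 edgeR called 0 of the 40 (background 0% at both days) and DESeq2 also called 0, with 8 members at day 1 (background 4.25%) and 0 at day 3 (background 4.78%) at an unadjusted p under 0.05. At day 7 edgeR called 2, both higher in DTR (background 0.641% higher and 1.37% lower), and DESeq2 also called 2. At day 14 edgeR called 0 (background 0.0767%) and DESeq2 0, with 10 at an unadjusted p under 0.05 (background 5.72%).

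The side on which most members lay changed with the day. The median DTR over WT change was -0.37 at day 1, with 7 of 40 above 0, and -0.18 at day 3, with 4 above 0. It was 0.55 at day 7, with 31 above 0, and 0.53 at day 14, with 34 above 0, while the median of all genes stayed between -0.02 and 0.01. Members whose DTR and WT libraries did not overlap numbered 4 at day 1, all lower in DTR (background 1.91% lower), and 4 at day 3, all lower (background 5.78%). They numbered 9 higher and 2 lower at day 7 (background 8.3% and 20.9%), and 9 higher and 2 lower at day 14 (background 8.28% and 5.69%).

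Background reads differed between genotypes at 2 of the days, each time on the side opposite to most members. Olfactory and vomeronasal receptor genes, few of which are known to be used in muscle, summed to 1072 to 2880 CPM in DTR and 510 to 844 CPM in WT at day 1, and to 92.1 to 146 CPM in DTR and 267 to 1383 CPM in WT at day 7, without overlap at either. At day 3 they summed to 436 to 1131 CPM in DTR and 315 to 1525 CPM in WT, and at day 14 to 1439 to 1997 CPM in DTR and 1578 to 1844 CPM in WT. In day 7 muscle 21496 and 22369 genes were detected in DTR and 22417 to 34392 in WT, where replicate 3 held the most. Without the library with the most such reads, the members' median was -0.61 at day 1 (without DTR replicate 2) and 0.45 at day 7 (without WT replicate 3). The part of the background reads in these medians was not tested.

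**Figure D3:**
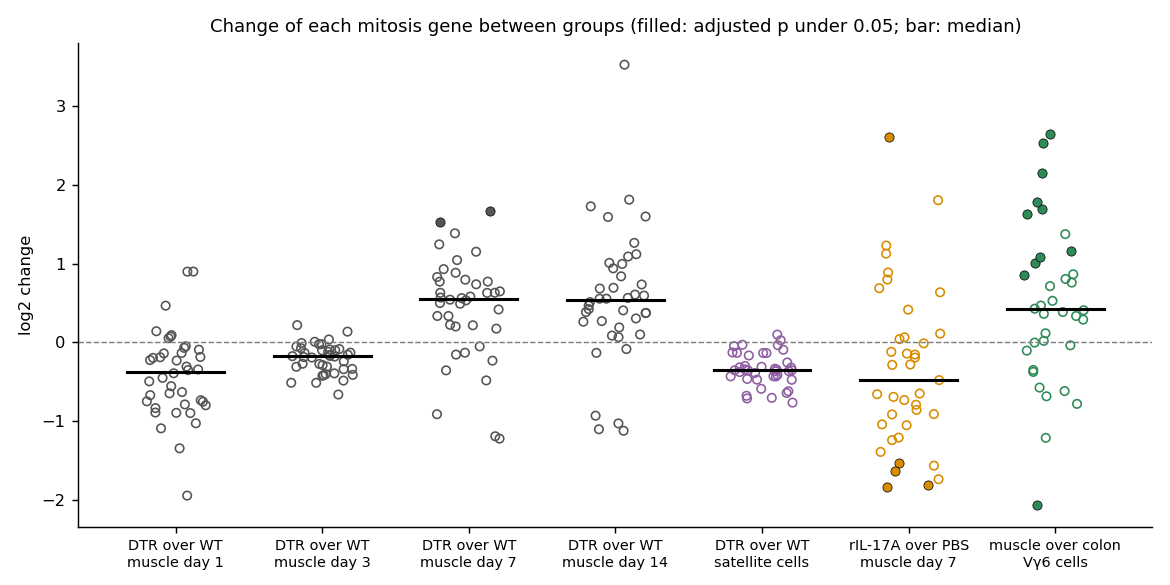
Log2 change of each mitosis gene in 7 comparisons, DTR over WT muscle at days 1, 3, 7 and 14, DTR over WT satellite cells, rIL-17A over PBS muscle and injured-muscle over colon Vγ6 cells, with filled points at an adjusted p under 0.05 and a bar at the median. Filled points number 0, 0, 2, 0, 0, 5 and 11 from left to right.

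Ccnb1 and Mki67 were the 2 members called at day 7. Ccnb1 stood at 3.98 and 7.02 CPM in DTR muscle, against 2.42, 0.967 and 2.77 CPM in WT muscle, and the groups did not overlap. The change was 1.67 ± 0.38 (SE, edgeR adjusted p = 0.0147). For Mki67, the classical marker of cycling cells, the 7.33 and 13.8 CPM in DTR muscle, against 5.55, 2.79 and 4.49 CPM in WT muscle, gave 1.52 ± 0.36 (edgeR adjusted p = 0.0209). Without DTR replicate 2, the higher of the 2 DTR libraries, neither passed (adjusted p = 0.281 for Ccnb1 and 0.316 for Mki67), nor without WT replicate 2 (0.0648 and 0.0732), and Mki67 did not pass without WT replicate 3 (0.0799). Mki67 did not pass without the 2 libraries in which most genes were detected for their day (0.0804). Fitted on day 7 alone, neither passed (0.265 and 0.18). Cdk1 followed with 15.1 and 20.05 CPM in DTR, against 9.39, 13.2 and 6.60 CPM in WT, at 1.04 ± 0.33 (edgeR adjusted p = 0.0738).

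By role, the day 7 medians ran from 0.10 for the spindle genes to 0.86 for kinases and cyclins, and the other 5 roles lay between. Of the replication genes, 2 of 35 were higher in DTR at day 7, the helicase subunit Mcm5 with 12.1 ± 2.1 CPM in DTR, against 3.77 ± 1.4 CPM in WT (SD), at 1.91 ± 0.35 (SE, edgeR adjusted p = 0.00222), and Gins4 at 0.99 ± 0.26 (edgeR adjusted p = 0.0394). The inhibitor Cdkn1c was higher as well, with 42.4 ± 16 CPM in DTR, against 19.2 ± 4.3 CPM in WT (1.33 ± 0.36, edgeR adjusted p = 0.0402). Satellite cell markers summed to 184 to 264 CPM in DTR and 197 to 271 CPM in WT at day 7, and macrophage markers to 107 to 327 CPM in DTR and 120 to 229 CPM in WT, with 0 of 6 called in each list.

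At day 14 no member passed, and the 3 with the smallest p were Plk1, Birc5 and Cdk1. Plk1 had 25 reads over the 3 DTR libraries (0.350, 1.69 and 4.10 CPM) and 2 over the 3 WT libraries (0, 0 and 0.607 CPM), a CPM ratio of 13.6 with an exact binomial 95% interval of 3.38 to 118 for counting error only. Its adjusted p was 0.171 by edgeR, 0.0217 without DTR replicate 1 and 0.00923 with no filter on low counts. Birc5 stood at 5.25, 2.53 and 5.13 CPM in DTR, against 2.25, 1.36 and 0.607 CPM in WT (1.59 ± 0.45, edgeR adjusted p = 0.247), and Cdk1 at 5.25, 7.17 and 4.92 CPM in DTR, against 1.75, 0.818 and 3.04 CPM in WT (1.60 ± 0.46, edgeR adjusted p = 0.27). For both genes all 3 DTR libraries lay above all 3 WT libraries. Ccnb1 lay the other way, with 1.05, 0.843 and 0.820 CPM in DTR, against 2.00, 1.64 and 1.82 CPM in WT (-1.03 ± 0.56, edgeR adjusted p = 0.94). The kinase inhibitor Cdkn1a was higher in DTR at this day, with 121 ± 33 CPM, against 42.3 ± 4.5 CPM in WT (1.50 ± 0.25, edgeR adjusted p = 0.00239). Satellite cell markers summed to 147 to 225 CPM in DTR and 103 to 120 CPM in WT, with 0 of 6 called and 2 without overlap, and their part in the members' values was not tested.

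At the first 2 days the members with the smallest p lay lower in DTR without passing. Plk1 stood at 0.363, 2.12 and 1.51 CPM in DTR, against 4.96, 5.21 and 3.31 CPM in WT at day 1 (-1.94 ± 0.52, edgeR adjusted p = 0.998, and 0.0207 with no filter on low counts). Racgap1, a regulator of the cleavage furrow, stood at 9.08, 8.73 and 8.89 CPM in DTR, against 14.4, 13.6 and 14.6 CPM in WT (-0.79 ± 0.29, edgeR adjusted p = 0.998). At day 3 Plk1 again did not overlap, with 50.7, 36.3 and 45.2 CPM in DTR, against 98.7, 58.5 and 56.2 CPM in WT (-0.66 ± 0.36, edgeR adjusted p = 1). Cdca3 at day 1 (-1.34 ± 0.44) and Ube2c (-0.40 ± 0.24) and Ccna2 (-0.42 ± 0.27) at day 3 completed the 3 smallest p of each day. Of the day 1 DTR libraries, replicate 2 held the highest value for 30 of the 40 genes.

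Whether the course over days differed between genotypes was tested as an interaction of genotype with day, and 2 of the 40 members passed (background 0.608%), Plk1 (edgeR adjusted p = 0.0245) and Ccnb1 (edgeR adjusted p = 0.0417), with 13 at an unadjusted p under 0.05 (background 13.5%). Plk1 lay lower in DTR at days 1 and 3 and higher at days 7 and 14. Ccnb1 lay lower in DTR at days 1, 3 and 14 and higher at day 7. Cdk1 (0.0609) and Mki67 (0.064) lay just outside the threshold. Plk1 did not pass without DTR replicate 3 (0.11), WT replicate 1 (0.0543) or WT replicate 2 (0.0504) of day 14. The call of Ccnb1 was lost when any 1 of 16 of the 23 libraries was left out. It held without replicates 1 or 2 of DTR and replicate 1 of WT at day 1, replicate 3 of WT at day 3, replicate 1 of either genotype at day 7 and replicate 1 of DTR at day 14. Outside the 40, Mcm5 (0.0279) and Cdkn1a (0.0215) passed the same test.

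Recombinant IL-17A was given to ask what the cytokine does to muscle at day 7. Of the 39 members tested (Ttk, at 0.155 and 2.29 CPM with rIL-17A and 1.26 and 0.858 CPM with PBS, was not), 4 were lower and 1 was higher with rIL-17A, where 16.1% of all genes were lower and 18.1% higher. The median change was -0.48 (all genes 0.05), and 12 of 39 were above 0. Libraries did not overlap for 17 members that were lower (background 28.4%) and 8 that were higher (background 40.5%). DESeq2 also called 5.

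Cdc20, which switches on the anaphase-promoting complex, stood at 7.61 and 6.04 CPM with rIL-17A, against 21.2 and 17.6 CPM with PBS (-1.63 ± 0.37, SE, edgeR adjusted p = 0.00523). Birc5 stood at 7.14 and 8.34 CPM with rIL-17A, against 24.0 and 16.4 CPM with PBS (-1.53 ± 0.36, edgeR adjusted p = 0.00651). For both genes the rIL-17A libraries lay below the lower PBS library. The kinetochore protein Nuf2 stood at 2.95 and 2.71 CPM with rIL-17A, against 12.2 and 6.29 CPM with PBS (-1.83 ± 0.54, edgeR adjusted p = 0.0199). Ccnb1 stood at 2.48 and 5.21 CPM with rIL-17A, against 17.3 and 6.72 CPM with PBS (-1.81 ± 0.55, edgeR adjusted p = 0.0228), so the PBS libraries lay further from each other than the nearest pair across groups. The checkpoint kinase Bub1 was the member that was higher, with 9.01 and 5.00 CPM with rIL-17A, against 0.377 and 1.72 CPM with PBS (2.61 ± 0.78, edgeR adjusted p = 0.0218).

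With 2 libraries a group, leaving out 1 leaves an arm of 1, so the spread then comes from the other arm and the lone library is assumed to vary alike. Birc5 passed in all 4 such fits, and the log2 changes kept their sign, from -1.73 to -1.28 for Birc5, -1.95 to -1.41 for Cdc20, -2.19 to -1.33 for Nuf2, -2.32 to -1.03 for Ccnb1 and 1.86 to 4.08 for Bub1. Cdc20 did not pass without rIL-17A replicate 3 (0.0559), and Bub1 not without rIL-17A replicate 1 (0.329). Nuf2 did not pass without PBS replicate 1 (0.0992), rIL-17A replicate 1 (0.0822) or rIL-17A replicate 3 (0.122), and Ccnb1 not without PBS replicate 1 (0.178) or rIL-17A replicate 1 (0.163). The members called numbered 2 to 12 over these fits, with 12 without PBS replicate 3, 3 without rIL-17A replicate 3 and 2 without rIL-17A replicate 1.

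Role medians lay below 0 except that of cytokinesis, where no gene passed the threshold. The medians were -1.13 for the passenger complex, -1.04 for kinases and cyclins, -0.69 for the kinetochore, -0.34 for the spindle, -0.28 for the checkpoint, -0.12 for chromosomes and 0.40 for cytokinesis. Aurkb stood at 6.52 and 3.75 CPM with rIL-17A, against 10.7 and 9.01 CPM with PBS (-1.05 ± 0.48, edgeR adjusted p = 0.107), and Plk1 at 4.81 and 4.38 CPM, against 5.90 and 11.2 CPM (-1.04 ± 0.52, edgeR adjusted p = 0.139). Prc1 of the cytokinesis genes stood at 9.63 and 10.01 CPM with rIL-17A, against 6.15 and 2.00 CPM with PBS (1.13 ± 0.55, edgeR adjusted p = 0.129), and Mki67 at 11.6 and 14.8 CPM, against 16.2 and 11.01 CPM (-0.19 ± 0.36, edgeR adjusted p = 0.714).

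Of the further mitosis genes 8 of 30 tested were lower with rIL-17A and 0 higher, led by the mitotic kinase Pbk, with 4.08 ± 0.72 CPM with rIL-17A, against 15.3 ± 3.8 CPM with PBS (SD, n = 2 each; edgeR adjusted p = 0.00323). Of the replication genes 8 of 32 were lower and 1 higher. These were Mcm2 on the higher side, with 25.4 CPM, against 12.3 CPM (0.91, edgeR adjusted p = 0.0477), and among the lower Pcna, the clamp of the replication fork, with 13.3 CPM, against 26.5 CPM (-1.16, edgeR adjusted p = 0.0144). The inhibitor Cdkn1a was lower with rIL-17A as well, at 77.0 ± 20 CPM, against 247 ± 74 CPM (-1.83 ± 0.24, edgeR adjusted p = 0.000235). Satellite cell markers summed to 165 and 215 CPM with rIL-17A and 275 and 330 CPM with PBS (3 of 6 lower), macrophage markers to 164 and 238 CPM and 305 and 345 CPM (3 of 6 lower), and endothelial markers to 295 to 319 CPM and 155 to 172 CPM (3 of 5 higher). Epithelial markers, of which Krt18 and Krt8 made up most, summed to 56.999 and 67.7 CPM with rIL-17A and 337 and 190 CPM with PBS (2 of 2 tested lower). Their part in the members' values was not tested.

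In satellite cells the group means of most members were lower in depleted mice, but the libraries of the 2 genotypes overlapped for all 40 and none passed the test. Of the 40 genes edgeR called 0 (background 0%) and DESeq2 0, with 3 at an unadjusted p under 0.05 (background 5.95%). The median change was -0.35 (range -0.76 to 0.10, all genes 0.02), and 0 of 40 had groups that did not overlap (background 6.93% lower and 6.35% higher). Mki67 was at 40.2, 58.5 and 40.5 CPM in DTR, against 54.3, 59.3 and 64.0 CPM in WT. For all 40 genes replicate 2 held the highest of the 3 DTR libraries, and for 36 replicate 3 the lowest. In the sum of the 40, DTR replicates 1 and 3 (1672 and 1179 CPM) lay below every WT library (2146 to 2360 CPM). DTR replicate 2 (2531 CPM) lay above them. Without DTR replicate 2 the median was -0.68 and without DTR replicate 3 it was -0.14.

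The 3 members with the smallest p were Kif20a, a motor of the cleavage midzone, Cdca8 of the passenger complex and Cdc20. Kif20a stood at 43.5, 73.1 and 33.2 CPM in DTR, against 78.1, 68.0 and 86.5 CPM in WT (-0.64 ± 0.26, edgeR adjusted p = 0.818). Cdc20 stood at 27.9, 55.1 and 21.7 CPM in DTR, against 45.3, 59.8 and 65.5 CPM in WT (-0.71 ± 0.32, edgeR adjusted p = 0.818). The widest spread was seen in Ccnb2, with 7.37, 28.4 and 4.48 CPM in DTR, against 15.5, 27.7 and 24.9 CPM in WT (-0.76 ± 0.64, edgeR adjusted p = 0.861). Replication genes lay lower in DTR with less spread, with sums of 4909 to 6285 CPM, against 6674 to 7184 CPM in WT, 14 of 35 without overlap and 11 of 35 at an unadjusted p under 0.05, and none passed the adjusted threshold.

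The sorted libraries held transcripts listed here as markers of other cells, and which cells these came from was not tested. The 6 markers of fibro-adipogenic progenitors, the stromal cells of muscle, summed to 5243 to 7144 CPM in DTR and 3827 to 5111 CPM in WT satellite cells, beside 4031 to 5136 CPM and 4981 to 5715 CPM of satellite cell markers. Dcn and Col1a1 made up most of the stromal sum, and Pdgfra stood at 43.0 CPM in DTR and 44.4 CPM in WT. DTR replicate 1 alone held 3138 CPM of myofibre markers, where the other 5 libraries held at most 38.8 CPM. Macrophage markers were near 0 in all, at 10.1 to 12.2 CPM in sum. The part of the stromal transcripts in the members' values was not tested.

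Day 1 satellite cells and day 3 muscle had mitosis genes at a like total, while the ratio between them varied over single members. In WT the ratio of mean CPM, satellite cells over day 3 muscle, had a median of 0.966 and ran from 0.268 for Cenpa to 1.92 for Aurkb. Without overlap between the libraries 10 members were lower in satellite cells (background 27.2% of 11799 genes) and 7 higher (background 32.8%). Lower were 3 of the 5 kinetochore genes, with Cenpa at 27.4, 26.2 and 31.7 CPM in satellite cells, against 114, 114 and 89.97 CPM in muscle, and Ccnb2 (ratio 0.283), Cenpe (0.342), Plk1 (0.465), Ube2c (0.465), Hmmr, Cenpf (0.504), Aurka, Mki67 (0.571) and Birc5 (0.631). Higher were Aurkb with 94.0, 115 and 129 CPM in satellite cells, against 73.8, 57.6 and 44.7 CPM in muscle, Ncapd2 (1.81), Cks2 (1.71) and 4 more, Prc1, Anln, Cdk1 and Ccna2. Role medians ran from 0.504 for the kinetochore to 1.45 for cytokinesis. The 2 sets differ in day, cell sorting and starting RNA, so these ratios carry no test.

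**Figure D4:**
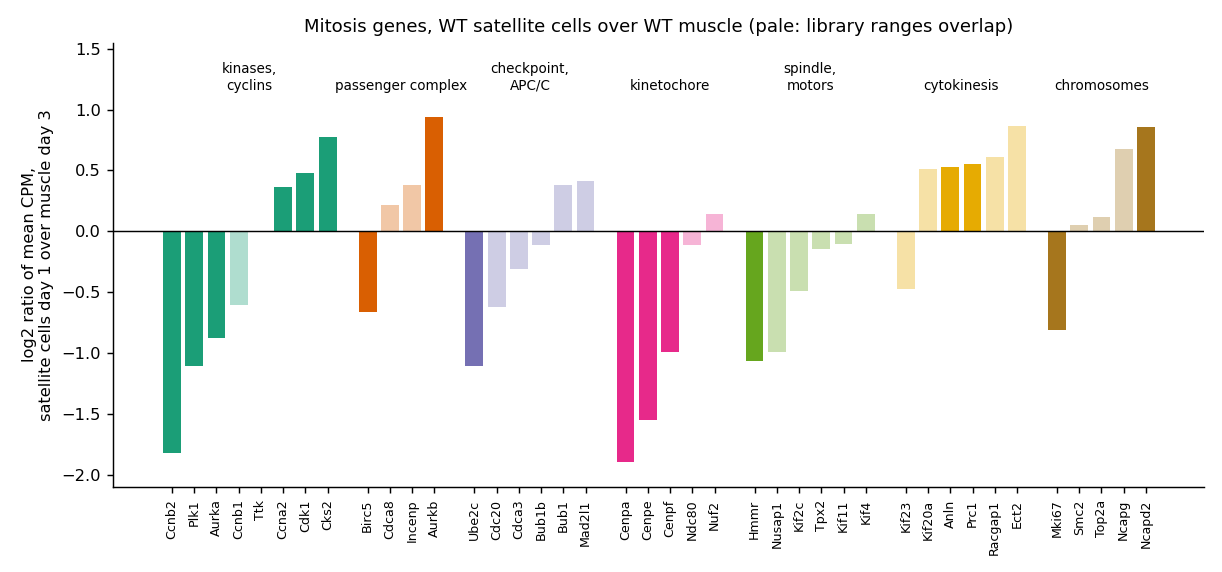
Log2 ratio of mean CPM in WT satellite cells at day 1 over WT muscle at day 3 (n = 3 each) for the 40 genes, as bars from 0 grouped by role, with pale bars where the library ranges overlap. Cenpa (ratio 0.268) and Ccnb2 (0.283) reach lowest and Aurkb (1.92) highest.

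Scaled to transcript length, the members ranked differently by cell type. In CPM per kilobase of the longest annotated transcript, Cenpa led in day 3 muscle, with 59.5 in DTR and 72.3 in WT, followed in WT by Ccnb2 (52.5), Cdc20 (49.0) and Ube2c (47.2). In WT satellite cells Aurkb led (57.8), before Ccna2 (54.3) and Cdca8 (50.5). In Vγ6 cells Cenpa led in both tissues, with 147 in injured muscle and 24.99 in colon, before Cks2, with 18.9 in muscle and 13.4 in colon.

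Vγ6 T cells of injured muscle had more mitosis transcripts than those of the colon, carried by a subset of the members. A large part of the difference in the sum lay in Cenpa, at 196 to 226 CPM in muscle, against 32.7 to 42.1 CPM in colon. Without Cenpa the sum was at most 347 CPM in colon Vγ6 cells. It was higher in every library of muscle Vγ6 cells, up to 518 CPM, so the 2 tissues stayed apart. The receptor markers of γδ T cells were present in both, at 9090 to 9423 CPM in muscle and 6157 to 6860 CPM in colon, and satellite cell markers were near 0 (0.652 to 6.14 CPM in muscle and 3.57 to 5.89 CPM in colon). Markers of endothelial cells summed to 149 to 162 CPM in muscle and 79.2 to 82.1 CPM in colon, nearly all of it Pecam1 (152 and 79.9 CPM), and those of B and plasma cells to 117 to 158 CPM and 45.1 to 58.2 CPM, nearly all of it Cd79b (135 and 48.1 CPM). The part of those markers in the members' values was not tested. Of 36 members tested, 10 were higher in muscle Vγ6 cells (background 12.3%) and 1 lower (background 12.2%), with a median change of 0.42, beside -0.01 over all genes. Libraries did not overlap for 13 members that were higher (background 21.5%) and 4 that were lower (background 18.2%). Bub1, Kif2c, Ttk and Hmmr had too few reads to be tested, and their mean level in muscle Vγ6 cells was 0.556, 0.506, 1.27 and 0.406 CPM.

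Cenpa, the histone variant that marks centromeres, had the smallest p of the 36. It stood at 226, 226 and 196 CPM in muscle Vγ6 cells, against 35.1, 42.1 and 32.7 CPM in colon Vγ6 cells, a change of 2.52 ± 0.13 (SE, edgeR adjusted p = 1.77e-09). Its level in muscle Vγ6 cells was 204% of that in WT day 3 muscle, where the other 10 called members stood at 52.3% or less except Incenp (78.8%). Cdc25b, a phosphatase that activates Cdk1 and is not among the 40, moved by the same size, with 272 ± 40 CPM in muscle and 45.7 ± 5.7 CPM in colon Vγ6 cells (SD, n = 3 each; 2.54 ± 0.13, edgeR adjusted p = 3.04e-09).

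Of the cytokinesis genes 4 of 6 were higher in muscle Vγ6 cells. Anln, a scaffold of the cleavage ring, stood at 8.48, 11.4 and 5.54 CPM in muscle, against 1.28, 1.74 and 0.892 CPM in colon (2.65 ± 0.50, edgeR adjusted p = 0.00125). Kif23 stood at 20.9, 15.3 and 25.7 CPM in muscle, against 7.17, 4.53 and 7.14 CPM in colon (1.69 ± 0.31, edgeR adjusted p = 0.000887). Prc1 stood at 24.1, 29.0 and 18.6 CPM in muscle, against 11.8, 3.48 and 5.89 CPM in colon (1.77 ± 0.37, edgeR adjusted p = 0.00221). In these 3 genes every muscle library lay above every colon library. Racgap1 overlapped, with 32.9, 58.7 and 56.0 CPM in muscle, against 19.0, 24.0 and 36.4 CPM in colon (0.86 ± 0.25, edgeR adjusted p = 0.0219), and did not pass without colon replicate 1, colon replicate 2, muscle replicate 2 or muscle replicate 3 (adjusted p 0.0736 to 0.108).

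Incenp, the scaffold of the passenger complex, stood at 45.8, 68.3 and 62.2 CPM in muscle, against 21.8, 32.6 and 26.8 CPM in colon (1.08 ± 0.20, edgeR adjusted p = 0.000996), while Aurkb (0.29 ± 0.53) and Birc5 (-1.21 ± 0.82) of the same complex did not pass. Mki67 stood at 35.9 to 48.9 CPM in the 3 muscle libraries, against 24.6, 12.5 and 17.8 CPM in colon (1.16 ± 0.24, edgeR adjusted p = 0.00232). The condensin subunit Ncapg (2.14 ± 0.48, edgeR adjusted p = 0.00374) and the kinetochore protein Ndc80 (1.63 ± 0.40, edgeR adjusted p = 0.00703) were higher in muscle too. Cdk1 stood at 16.3, 14.6 and 17.2 CPM in muscle, against 5.38, 8.53 and 9.28 CPM in colon (1.01 ± 0.29, edgeR adjusted p = 0.0209), and did not pass without colon replicate 1 (0.0726), muscle replicate 1 (0.0551) or muscle replicate 3 (0.0709).

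None of the cyclin partners of Cdk1 was called higher. Ccna2 was the member that was lower, with 1.30, 1.29 and 1.78 CPM in muscle, against 2.82, 9.23 and 5.71 CPM in colon (-2.06 ± 0.56, edgeR adjusted p = 0.0138), a call lost without colon replicate 2 (0.121) or muscle replicate 1 (0.0503). Ccnb1 stood at 2.93, 3.51 and 2.38 CPM in muscle, against 1.28, 1.57 and 3.57 CPM in colon (0.41 ± 0.58, edgeR adjusted p = 0.666), and Ccnb2 at 0.978, 5.72 and 8.12 CPM, against 1.28, 2.44 and 7.14 CPM (0.39 ± 0.69, edgeR adjusted p = 0.74). Plk1 stood at 5.54, 5.35 and 3.37 CPM in muscle, against 3.07, 1.04 and 1.43 CPM in colon, apart but past no threshold (1.37 ± 0.56, edgeR adjusted p = 0.0886). Checkpoint genes gave 0 of 5 tested (median -0.37, 0 at an unadjusted p under 0.05) and spindle genes 0 of 4 (median -0.36, 0 at an unadjusted p under 0.05) by edgeR (background 35.9% at that p). A p that misses the threshold does not show that the groups are alike, and counts were low, as in Bub1 with 0.163, 1.11 and 0.396 CPM in muscle, against 2.56, 1.22 and 6.42 CPM in colon.

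**Figure D5:**
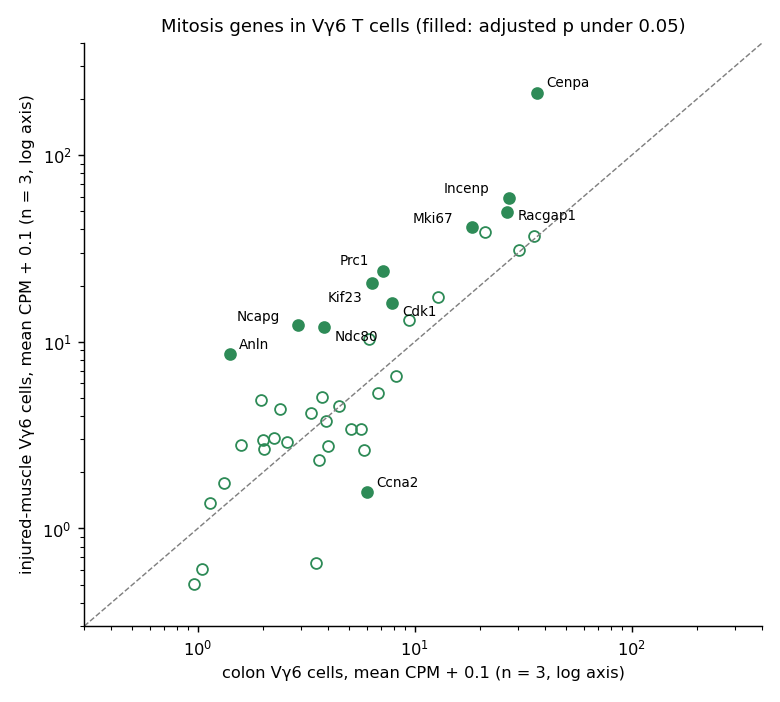
Mean CPM + 0.1 of each of the 40 genes in injured-muscle Vγ6 cells (vertical) and colon Vγ6 cells (horizontal), n = 3 each, on log axes with a dashed line of equal level and filled, named points at an adjusted p under 0.05. Cenpa stands furthest up, at 216 CPM in muscle cells against 36.6 CPM in colon cells, and Ccna2 is the filled point below the line.

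Few genes of DNA replication were called in this comparison. Of 34 tested, 1 was higher in muscle Vγ6 cells, the licensing factor Cdt1 (0.93 ± 0.15, edgeR adjusted p = 0.000421), and 2 were lower, and the list summed to 1459 to 1668 CPM in muscle and 1384 to 1599 CPM in colon. Pcna (-0.21, edgeR adjusted p = 0.29) and Mcm2 (-0.20, edgeR adjusted p = 0.266) did not pass. The ratio of mitosis to replication transcripts was 0.371 to 0.510 in muscle and 0.211 to 0.238 in colon, and without Cenpa 0.235 to 0.355 in muscle and 0.184 to 0.217 in colon. Of the further mitosis genes 5 of 28 were higher and 2 lower, with a median of 0.07. Myc, which drives cells into the cycle, was lower in muscle Vγ6 cells, with 31.9 ± 4.7 CPM, against 112 ± 12 CPM in colon (-1.84 ± 0.15, edgeR adjusted p = 4.97e-07), as was the D-type cyclin Ccnd3, with 297 ± 12 CPM, against 576 ± 84 CPM (-0.98 ± 0.10, edgeR adjusted p = 3.88e-06). The inhibitor Cdkn1b was higher, with 144 ± 12 CPM, against 78.9 ± 8.0 CPM (0.84 ± 0.11, edgeR adjusted p = 6.03e-05).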

How the data were processed

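The authors deposited 1 table of raw counts per gene symbol, with 39 columns that each matched 1 labelled library. Per the submitters' processing notes, tools were STAR 2.7.3a and featureCounts (Subread 2.0.0) with mm10. The kit, the annotation, the strand setting and how repeated reads were handled were not given in the sources used here.

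CPM was computed over each column's total. Groups came from the labels. Tests used edgeR 4.0.16 in R 4.3.3 (quasi-likelihood F-test, robust fit, TMM, filterByExpr at 10 counts and 15 in total), with Benjamini-Hochberg adjustment over all genes tested and a threshold of 0.05. The 23 time course libraries shared 1 fit, and the other comparisons were fitted on their own libraries. Fits were tested on simulated data. Alternatives were DESeq2 1.42.0 and its size factors, library size alone, no filter, a length and GC offset, fits on 1 day, a replicate block and each library left out.

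Replicate numbers did not pair samples. Replicates of 1 group differed by a chi-square of at least 3.88 for each degree of freedom, so none were copies.

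The members and lists were chosen with earlier results of these data known. Named were 14 members spread over the roles, members past the threshold (the 6 smallest p where many passed, the 3 smallest where none did), and up to 2 genes of each other list per comparison beside Foxm1, Mybl2, Pcna, Mcm2, Ccnd1 and Cdkn1a. Gene overlaps and transcript lengths came from a GENCODE annotation of GRCm38.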

Additional observations from a re-analysis of the deposited data

Results flagged for a closer look

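For 2 members the course over days differed between Tcrd-DTR and WT muscle by the test of the difference itself, the interaction of genotype with day in edgeR. For Plk1 the Benjamini-Hochberg adjusted p was 0.0245, with a DTR over WT log2 change of -1.94 at day 1, -0.66 at day 3 and 0.53 at day 7, and with 25 reads in DTR and 2 in WT at day 14. For Ccnb1 it was 0.0417, with a DTR over WT log2 change of -0.75 at day 1, -0.19 at day 3, 1.67 at day 7 and -1.03 at day 14. Both genes were at few reads outside day 3, with 0 to 7.02 CPM in every DTR and WT time course library of days 1, 7 and 14. The call of Ccnb1 was lost under 20 of 30 alternatives, and that of Plk1 under 3 of 30.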

How the results depend on the processing

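No direction turned round. The 66 results of members followed here had a 2-group test and were picked by passing the threshold or by smallest p. Of these, 55 kept their side of the threshold under every alternative run, and of their 824 alternatives 28 lost and 3 gained a call. For each step between days, the 66 held only the 6 members with the smallest p, and these kept their calls throughout. Their small p made a change of side unlikely from the start. Other members of the steps did change side. In WT from day 3 to 7, 38 to 40 members were called with each library left out in turn (39 with all libraries). Both genotype calls at day 7 were lost under at least 1 alternative, as were Cdc20, Nuf2, Bub1 and Ccnb1 with rIL-17A. So were Ccna2, Cdk1 and Racgap1 in Vγ6 cells, while Plk1 gained a call for genotype at days 1 and 14. With each library left out in turn, the members called numbered 2 to 12 with rIL-17A (5 with all libraries), 0 to 4 for genotype at day 7 (2), 0 to 1 at day 14 (0), 10 to 16 from day 7 to 14 in WT (16), 10 to 15 in DTR (15) and 0 to 5 for the interaction (2). At day 7, the fit on that day alone and the replicate block each called 0, and the fit without those 2 libraries in which most genes were detected called 1. With no filter on low counts 1 member each was called at days 1 and 14 and 8 in the interaction. A length and GC offset called 10 members in WT and 7 in DTR from day 7 to 14 and 1 in the interaction, for which DESeq2 called 6 and its size factors, library size alone and the replicate block 1 each. Library size alone put the median of all genes at -1.20 in DTR and -0.74 in WT from day 3 to 7 (members -2.97 and -3.51), 0.40 in WT from day 1 to 3, 0.41 in DTR from day 7 to 14, -0.25 for DTR over WT at day 7 (members 0.34) and 0.20 for rIL-17A over PBS (members -0.31). Replicate numbers share no source in the labels, and the block changed no further count by more than 1.5 times. The causes were not tested. Depth limits day 14, where the 40 genes together held 367 to 955 reads in DTR and 382 to 464 in WT. With 2 to 3 libraries a group, changes in single members could be missed, and not only those under 2-fold. For DTR over WT, the log2 changes of Plk1 at day 1 (-1.94) and Birc5 at day 14 (1.59) did not pass. Intervals from reads cover counting error only.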

Other observations

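Genes of smell receptors, few of which are known to be used in muscle or T cells, gave a level of background reads per kilobase. The 40 members stood at 3.84 to 5.58 times that level in DTR and 9.75 to 17.3 times in WT muscle at day 1, 65.7 to 183 and 57.9 to 349 times at day 3, 63.2 to 134 and 5.33 to 29.2 times at day 7, and 3.01 to 5.16 and 2.39 to 2.87 times at day 14. Muscle given rIL-17A stood at 447 to 544 times and PBS muscle at 809 to 1212 times. In both genotypes day 14 held the lowest multiple of any time course library.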
